A study of Rattus norvegicus with 9 samples.

Results

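The 9 transcription factor genes Ebf1, Pax5, Bach2, Ikzf3, Lef1, Foxo1, Sox5, Irf4 and Tcf3 were followed through the B cell stages of rat bone marrow, in stromal cells and in the other cell classes of a healing tibia. They were taken by symbol as a list of B lineage factors, and all 9 were found among the 41801 genes listed in each library. The cells came from the osteotomy site of male Sprague-Dawley rats aged 6 to 8 weeks. Every animal carried a circular defect of 3 mm in the proximal tibia and a skin wound of 4 mm on the back of the same foot. The TO group had the osteotomy alone, and the TOE group also received radial extracorporeal shock waves over the bone on days 2 and 4. Libraries are named by group, by the day of the session and by the hours between session and collection. The TO libraries were the baseline before any shock wave (2d 0h), those collected 4 h after either session (2d 4h and 4d 4h) and 1 collected a day after the second session (4d 24h). TOE was sampled 4 h and 24 h after each session, so its 2d libraries had received the first session only. The TO library of 24 h after the first session was not analysed here. Each condition was 1 library. The design names 9 rats for 9 samples without tying animals to libraries, so differences between libraries may include differences between animals. No uninjured bone was among the groups.

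B cells are made in the bone marrow in ordered steps. Pro-B cells rearrange the heavy chain, large pre-B cells carry the surrogate light chain and divide, small pre-B cells stop dividing and rearrange the light chain, and immature and mature B cells carry a complete receptor. Ebf1, the E2A protein encoded by Tcf3, and Foxo1 open this programme, and Pax5 then commits the cell to it by activating B cell genes and repressing those of other lineages. Ikzf3, which encodes Aiolos, and Irf4 act at the step from large to small pre-B cells, Bach2 represses the plasma cell programme, and Lef1 is a partner of Wnt signalling that is known from early B and T cells. Sox5 is best known from cartilage. Ebf1 is also known in mesenchymal progenitors of marrow and fat.

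Levels were summed over all cells of a stage in a library and are given as CPM, molecules (UMIs) of the gene per 1000000 molecules of those cells. Each library held 12451 to 17187 cell barcodes and 95954800 to 144146202 UMIs. After filtering, 110426 cells formed 33 clusters, of which 64004 cells were B-cell-like. These fell into 2528 pro-B, 14408 cycling large pre-B, 34358 small pre-B and 12710 immature or mature B cells. Dntt, which adds bases during heavy chain rearrangement, had median levels over the 8 libraries of 532, 3.86, 2.76 and 1.61 CPM in this order of stages. Mki67, a marker of dividing cells, stood at 352, 991, 42.5 and 59.9 CPM. Rag1, part of the recombinase, stood at 236, 35.9, 462 and 26.2 CPM, and Ms4a1 (CD20) at 5.61, 7.60, 8.96 and 522 CPM. The stages were named from marker lists that hold these genes, so this pattern is no independent check of the names. Median UMIs per cell over the libraries were 7692, 11116, 3783 and 3926 in these stages. Of the 108972 distinct barcodes kept, 1428 occurred in 2 libraries and 13 in 3.

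One library stood apart. In TOE 4d 24h, a group of small pre-B cells with high Rag2 made up 93.8% of small pre-B cells, against 8.85% to 64.6% in the other libraries. A group with high Ms4a1 made up 92.4% of its immature or mature B cells, against 5.34% to 44.5% elsewhere. In its small pre-B cells Hba-a1, a haemoglobin gene, stood at 5.49 CPM against 254 to 871 CPM in the others, and the 12 neutrophil markers summed to 4491 CPM against 1099 to 2178 CPM. Where it moves a call or moves the end of a member's range over the B cell stages by over 1.5 times, the value without it is given as well.

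**Figure D1:**
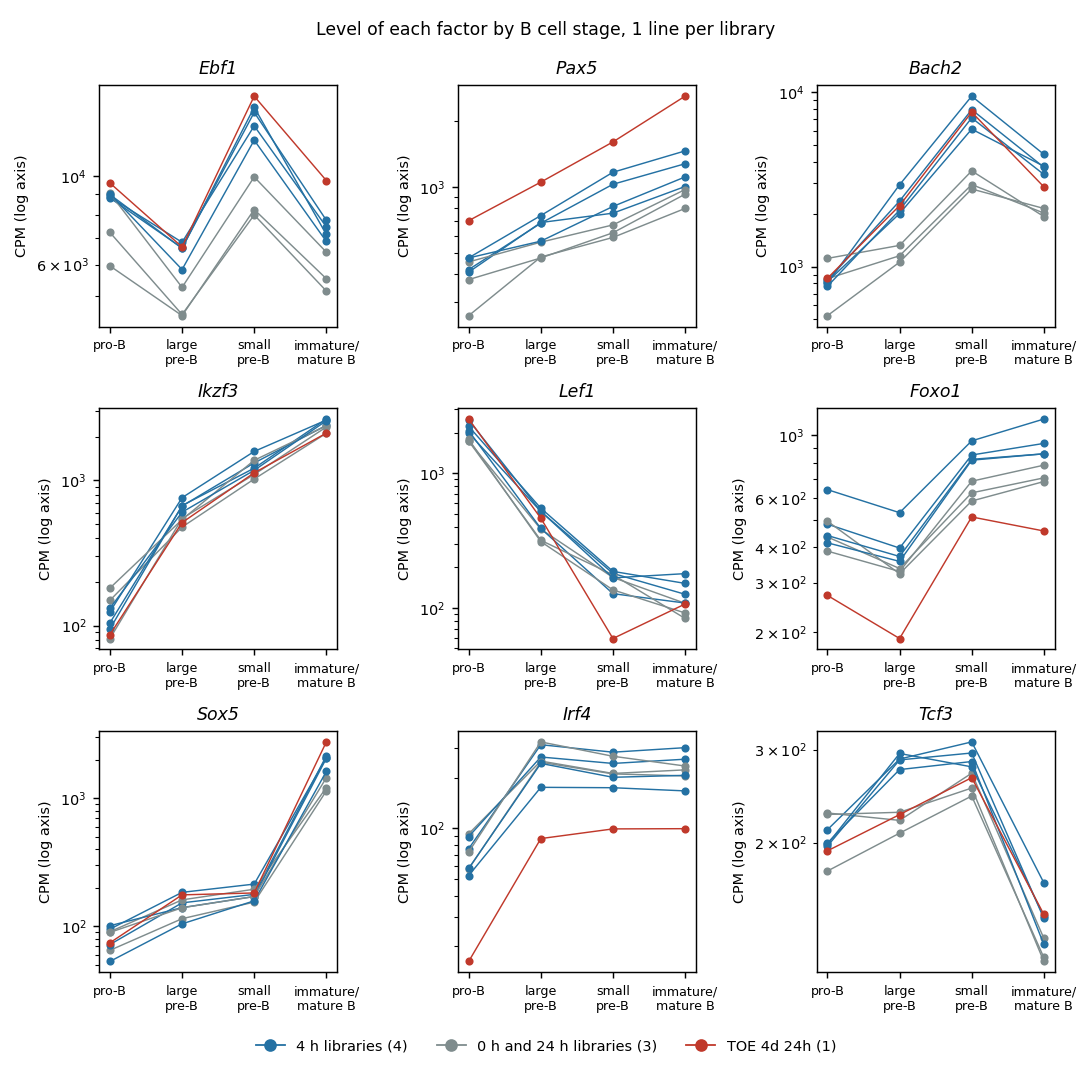
Level of each of the 9 genes (CPM, log axis) in pro-B, cycling large pre-B, small pre-B and immature or mature B cells, with 1 line per library: blue for the 4 libraries taken at 4 h, grey for the 3 other libraries of 0 h or 24 h and red for TOE 4d 24h. Lef1 drops from medians of 2032 to 108 CPM across the stages, Ikzf3 climbs from 115 to 2390 CPM, and Sox5 reaches at most 213 CPM before the last stage.

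The factors that open the programme were present at every stage. Ebf1 was high throughout. Its level was 5956 to 9590 CPM (median 8909, n = 8 libraries) in pro-B cells and 4477 to 6823 CPM (median 6212) in large pre-B cells. It was 7985 to 15797 CPM (median 12793) in small pre-B cells and 5159 to 9730 CPM (median 6998) in immature or mature B cells. The ranges of large and small pre-B cells did not overlap, while those of pro-B and large pre-B cells and of small pre-B and immature or mature B cells did. Within libraries small pre-B cells stood above large pre-B cells in 8 of 8, and large pre-B cells stood below pro-B cells in 8 of 8. Ebf1 fell by 0.51 ± 0.045 on the log2 scale (± SE) from pro-B to large pre-B cells (edgeR quasi-likelihood test with libraries as blocks, Benjamini-Hochberg adjusted p = 2.91e-07). It then rose 1.98-fold to small pre-B cells (log2 0.99 ± 0.053, adjusted p = 7.26e-10) and fell by 0.76 ± 0.048 on the log2 scale to immature or mature B cells (adjusted p = 8.09e-09), by the same test.

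Tcf3, whose E proteins bind E-box motifs and act together with Ebf1, was lowest in the last stage. Its level was 177 to 228 CPM (median 199) in pro-B, 208 to 295 CPM (median 252) in large pre-B and 245 to 310 CPM (median 275) in small pre-B cells. In immature or mature B cells it was 119 to 168 CPM (median 138), below every library of all 3 earlier stages. Tcf3 fell by 0.99 ± 0.037 on the log2 scale at this last step (1.99-fold lower, edgeR quasi-likelihood test, adjusted p = 3.33e-11). The rise from pro-B to large pre-B cells was small (log2 0.33 ± 0.069, adjusted p = 0.000861, higher in 7 of 8 libraries) and did not pass in the 0 h and 24 h libraries by themselves (log2 0.115, adjusted p = 0.330, with 1.63e-06 to 0.330 over all alternatives). Between large and small pre-B cells Tcf3 did not pass the test (log2 0.09 ± 0.051, adjusted p = 0.110). It passed there with DESeq2 (adjusted p = 0.0190), without TOE 4d 4h (0.0493), in the 0 h and 24 h libraries by themselves (0.0373) and with stages from the UMIs of single cells (0.0277), the highest adjusted p over the alternatives being 0.548.

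Foxo1, a forkhead factor that promotes Rag and Il7r expression and is held out of the nucleus by PI3K and AKT signalling, was lowest in the dividing cells. Its level was 270 to 641 CPM (median 438) in pro-B, 190 to 531 CPM (median 347) in large pre-B, 513 to 955 CPM (median 751) in small pre-B and 457 to 1142 CPM (median 821) in immature or mature B cells. The library TOE 4d 24h was the lowest in all 4 stages, and without it the ranges began at 388, 322, 584 and 685 CPM. Foxo1 fell by 0.32 ± 0.051 on the log2 scale in large pre-B cells and rose 2.04-fold in small pre-B cells (log2 1.03 ± 0.057), in 8 of 8 libraries each (edgeR quasi-likelihood test, adjusted p = 9.04e-05 and 9.68e-10). The first step fell by 0.117 when stages were set from the UMIs of single cells (adjusted p = 0.0227), and did not pass without the library block (adjusted p = 0.174). The last step was small (log2 0.13 ± 0.044, adjusted p = 0.0199, 7 of 8 libraries) and missed the threshold without TO 2d 0h (adjusted p = 0.0503), TO 2d 4h (0.0601) or TOE 2d 24h (0.0565). Over all alternatives its adjusted p ran from 0.00113 to 0.749.

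Pax5 climbed at each step. It was 259 to 702 CPM (median 437) in pro-B cells, 474 to 1052 CPM (median 625) in large pre-B cells, 588 to 1605 CPM (median 787) in small pre-B cells and 798 to 2595 CPM (median 1058) in immature or mature B cells. The upper end of every range was TOE 4d 24h, and the other 7 libraries reached 475, 740, 1167 and 1460 CPM. Each step was higher in 8 of 8 libraries. The log2 changes were 0.58 ± 0.069, 0.40 ± 0.055 and 0.48 ± 0.042 (edgeR quasi-likelihood test, adjusted p = 6.45e-06, 1.54e-05 and 2.41e-07). Without the library block the last 2 steps kept their size (0.41 and 0.49) but did not pass, with adjusted p of 0.0879 and 0.144, each the highest of its alternatives, the lowest being 4.47e-12 and 2.37e-20.

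Lef1 and Irf4 moved in opposite directions at the first step. Lef1, a DNA-bending factor of the HMG family, marked the pro-B stage. It stood at 1737 to 2535 CPM (median 2032) in pro-B, 311 to 550 CPM (median 426) in large pre-B, 59.0 to 186 CPM (median 167) in small pre-B and 83.3 to 179 CPM (median 108) in immature or mature B cells. The first 3 ranges did not overlap. Lef1 fell by 2.26 ± 0.063 on the log2 scale from pro-B to large pre-B cells (4.78-fold lower) and by a further 1.59 ± 0.18 to small pre-B cells (3.01-fold lower), in 8 of 8 libraries (edgeR quasi-likelihood test, adjusted p = 4.88e-12 and 2.30e-06). Between small pre-B and immature or mature B cells the change missed the threshold (log2 -0.30 ± 0.14, adjusted p = 0.0824). Without TOE 4d 24h, where Lef1 in small pre-B cells was 59.0 CPM against 127 to 186 CPM in the other libraries, it passed (log2 -0.45, adjusted p = 0.000767, with 0.000253 to 0.270 over all alternatives).

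Irf4, which promotes light chain rearrangement and later the plasma cell fate, was 16.3 to 92.9 CPM (median 65.3) in pro-B cells and 87.1 to 325 CPM (median 249) in large pre-B cells. It was 99.3 to 283 CPM (median 211) in small pre-B and 99.6 to 301 CPM (median 214) in immature or mature B cells. TOE 4d 24h was the lowest library in all 4 stages, and without it the ranges began at 52.6, 175, 174 and 167 CPM. Irf4 rose 3.76-fold at the first step (log2 1.91 ± 0.096, 8 of 8 libraries, edgeR quasi-likelihood test, adjusted p = 9.90e-10). The second step was a fall by 0.18 ± 0.048 on the log2 scale (adjusted p = 0.00446, lower in 7 of 8 libraries, with 0.000640 to 0.532 over the alternatives), and at the last step Irf4 did not pass the test (log2 0.01 ± 0.037, adjusted p = 0.874). Irf4 was the only one of the 9 with its highest median in the dividing large pre-B cells.

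The start regions of these 2 genes are shown because they carried the opposite changes at the first step. RefSeq windows on assembly GRCr8, from 250 bases before to 50 bases after the annotated start, were matched by symbol for 6 of the 9 genes, with no entry for Pax5, Ikzf3 or Sox5. That of Lef1 lies on the forward strand at chr2:222340463-222340762 and that of Irf4 on the reverse strand at chr17:33948681-33948980. Capitals mark an E-box of the letters CAGGTG, read on either strand, the kind of site that E2A proteins bind. Both sequences run 5′ to 3′ along the gene.
Lef1: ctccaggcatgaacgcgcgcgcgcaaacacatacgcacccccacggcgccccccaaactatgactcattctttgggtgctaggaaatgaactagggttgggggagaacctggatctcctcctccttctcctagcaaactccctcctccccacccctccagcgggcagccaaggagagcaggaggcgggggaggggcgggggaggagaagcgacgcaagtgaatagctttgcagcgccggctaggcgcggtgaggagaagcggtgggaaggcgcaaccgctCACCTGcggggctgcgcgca
Irf4: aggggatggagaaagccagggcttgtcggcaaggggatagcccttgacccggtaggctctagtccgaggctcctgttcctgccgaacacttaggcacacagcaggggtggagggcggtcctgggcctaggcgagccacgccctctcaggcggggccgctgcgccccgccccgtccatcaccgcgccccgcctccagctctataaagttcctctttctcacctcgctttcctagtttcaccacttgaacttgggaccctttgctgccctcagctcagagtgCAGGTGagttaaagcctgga
In both windows the E-box began at base 281 of the 300, 30 bases after the start, and 18.8% of all 33469 windows of this length held the same letters on either strand. Windows of the other 4 matched genes held none. No match was found in the 6 windows for an EBF site (TCCC and GGGA with 2 free bases between them, in 0.834% of all windows), a FOXO site (GTAAACA, 3.78%), a LEF/TCF site (CTTTGA, 16.1%) or an ETS-IRF composite site (GGAA, 1 free base, then TGAAA, 0.648%). A match of letters is a description and does not show binding. The 2 windows had GC contents of 64.7% and 62.7%, against a median of 51.7% over all windows.

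Ikzf3, whose product Aiolos silences surrogate light chain genes and ends pre-B cell division, climbed at every step. Its level was 81.5 to 181 CPM (median 115) in pro-B, 478 to 761 CPM (median 576) in large pre-B, 1023 to 1585 CPM (median 1196) in small pre-B and 2115 to 2651 CPM (median 2390) in immature or mature B cells. No library of one stage reached the range of the next. The first step was the largest (5.19-fold, log2 2.38 ± 0.13, adjusted p = 2.61e-09), followed by log2 1.02 ± 0.055 (2.03-fold, adjusted p = 8.01e-10) and 0.97 ± 0.047 (1.95-fold, adjusted p = 5.58e-10), all by the edgeR quasi-likelihood test. At the first step, 2.44% of all genes tested changed by at least as much in either direction.

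Bach2, a repressor that holds back Prdm1 and with it the plasma cell programme, rose to the small pre-B stage and then fell. Its level was 522 to 1114 CPM (median 826) in pro-B, 1060 to 2949 CPM (median 2062) in large pre-B, 2788 to 9513 CPM (median 6646) in small pre-B and 1937 to 4411 CPM (median 3125) in immature or mature B cells. In small pre-B cells the libraries split widely: TO 2d 0h, TO 4d 24h and TOE 2d 24h lay at 2788 to 3542 CPM, and the other 5 at 6153 to 9513 CPM. The log2 changes were 1.18 ± 0.14, 1.56 ± 0.058 (2.95-fold) and -0.89 ± 0.093, each in 8 of 8 libraries (edgeR quasi-likelihood test, adjusted p = 6.55e-06, 1.59e-11 and 1.52e-06).

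Sox5 marked the last stage. It was 53.1 to 101 CPM (median 81.9) in pro-B, 104 to 184 CPM (median 146) in large pre-B and 154 to 213 CPM (median 174) in small pre-B cells, and 1142 to 2756 CPM (median 1836) in immature or mature B cells. Every library of the last stage was above all libraries of the others. Sox5 rose 9.86-fold from small pre-B to immature or mature B cells (log2 3.30 ± 0.11, 8 of 8 libraries, edgeR quasi-likelihood test, adjusted p = 1.72e-11), and only 0.551% of all genes tested changed by as much. The earlier steps were log2 0.89 ± 0.077 and 0.26 ± 0.063 (adjusted p = 2.49e-07 and 0.00199). The second of these turned to -0.21 (adjusted p = 0.0301) when stages were set from the UMIs of single cells, and its adjusted p reached 0.142 over the alternatives.

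**Figure D2:**
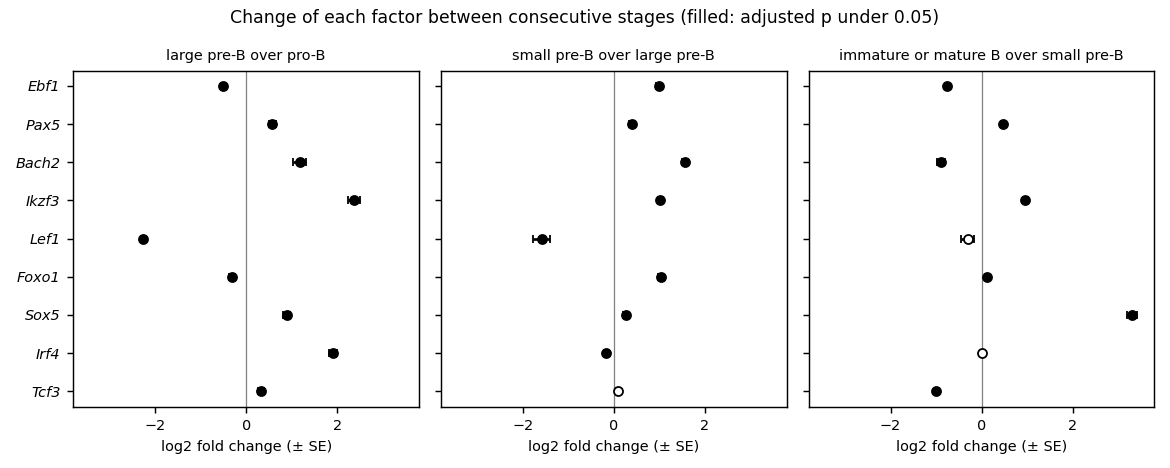
Log2 change of each gene between neighbouring stages from the edgeR quasi-likelihood test over 8 libraries, with a standard error derived from its F statistic. The 3 panels run from pro-B to immature or mature B cells (filled points have an adjusted p under 0.05). Ikzf3 and Irf4 rise most at the first step and Lef1 falls, Bach2 rises most at the second, and Sox5 stands alone at the third with 3.30.

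Counted together, 6 of the 9 genes were higher and 3 lower in large pre-B than in pro-B cells, where 59.4% of 13617 genes tested were called in either direction (30.4% higher and 29.0% lower). In small against large pre-B cells 6 were higher, 2 lower and 1 did not pass, with 74.5% of 15056 genes called (37.5% higher and 36.9% lower). In immature or mature B against small pre-B cells 4 were higher, 3 lower and 2 did not pass, with 59.9% of 13804 genes called (28.6% higher and 31.2% lower). Most genes thus changed between stages, and the members' calls by themselves do not set them apart. The median size of change of the 9 genes was 0.89, 0.99 and 0.76 on the log2 scale, against 0.36, 0.49 and 0.28 over all genes tested. The signed medians were 0.58, 0.40 and 0.01, against 0.01, 0.03 and -0.03. The 9 genes were chosen with earlier results of these data known, so these medians are a description. The stages were clusters of the same cells, built without these 9 genes and the other listed factors but with genes that move along with them. The p-values weigh the size of each change against its spread over the 8 libraries. They are no independent test of whether the stages differ.

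Other B lineage factors changed at the same 3 steps, at which 59.4%, 74.5% and 59.9% of all genes tested were called. Of 46 listed, 15 rose and 19 fell among 44 tested from pro-B to large pre-B cells, 24 rose and 13 fell among 43 from large to small pre-B cells, and 19 rose and 17 fell among 42 at the last step. At the first step the largest rises were those of Spib (an ETS factor of B cells, log2 3.15 ± 0.16), Id2 (an inhibitor of E proteins, 2.41 ± 0.12) and Pou2f2 (2.32 ± 0.11). Erg, a factor of early progenitors, fell by 5.09 ± 0.22, Tcf7, the relative of Lef1, fell by 2.28 ± 0.13, and Ikzf2 fell by 1.68 ± 0.27, from a median of only 4.62 CPM. The fall of Tcf7 stood beside that of Lef1, from 45.7 to 7.99 CPM in the median. At the second step Xbp1 (1.28 ± 0.064), Tcf4 (1.21 ± 0.052) and Foxp1 (1.20 ± 0.053) rose most, and Myc, a driver of growth, fell by 2.23 ± 0.21, Nr4a1 by 1.58 ± 0.061 and Id3 by 1.09 ± 0.15. At the last step Myc (2.74 ± 0.13), Irf8 (2.55 ± 0.066) and Nr4a1 (2.29 ± 0.14) rose most. Sox4 fell by 1.93 ± 0.062, Myb by 1.62 ± 0.080 and Zeb2 by 1.32 ± 0.042. All these passed at adjusted p values of 9.50e-05 or lower (edgeR quasi-likelihood test). Myc had medians under 21 CPM in all 4 stages.

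Genes known as targets of Ebf1, Pax5, E2A or Foxo1 were read beside them. Of 18 listed, 17 were in the tables. At the first step 5 rose, 7 fell and 5 did not pass. At the second 13 rose and 4 fell, and at the last 7 rose, 9 fell and 1 did not pass. Of all genes tested, 59.4%, 74.5% and 59.9% were called at these steps. Il7r, a target of Foxo1 and Ebf1, fell at each step, by 1.84 ± 0.061, 1.10 ± 0.11 and 1.52 ± 0.089 on the log2 scale. Rag1 fell by 2.88 ± 0.16, rose by 3.73 ± 0.087 and fell by 4.04 ± 0.068. Igll1, the surrogate light chain gene that Aiolos is known to silence, fell by 1.91 ± 0.054, 3.92 ± 0.096 and 1.14 ± 0.11. Cd22, an inhibitory receptor, fell by 1.81 ± 0.077 and 1.12 ± 0.074 and then rose by 3.22 ± 0.068. All of these passed at adjusted p values of 1.02e-06 or lower (edgeR quasi-likelihood test). Rag1, Dntt, Igll1, Il7r and Cd22 were also stage markers, so their pattern is no independent check of the factors.

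Within stages the genes also differed between cell groups, which were seen in the clusters and compared without a test. In the 12381 Rag2-high small pre-B cells Pax5 had a median of 1355 CPM, against 619 CPM in the 21977 other small pre-B cells, and was higher in 8 of 8 libraries (median log2 ratio 0.99). Bach2 stood at 7846 against 4807 CPM (8 of 8, 1.01) and Ebf1 at 15168 against 10430 CPM (8 of 8, 0.61). Irf4 stood at 134 against 241 CPM and Lef1 at 79.4 against 186 CPM, both lower in 8 of 8 libraries (-0.78 and -1.24). Foxo1 was lower in 7 of 8 (-0.23). The Rag2-high group therefore paired high Pax5 with low Irf4. In the 3268 Ms4a1-high B cells, against the 9442 other immature or mature B cells, Pax5 stood at 2411 against 885 CPM (8 of 8, 1.41) and Sox5 at 3097 against 1351 CPM (8 of 8, 1.12). Ebf1 stood at 9277 against 6103 CPM (8 of 8, 0.55). Irf4 stood at 95.8 against 236 CPM and Foxo1 at 583 against 848 CPM, both lower in 8 of 8 libraries (-1.32 and -0.55). The groups were clusters of the same cells, so these values describe them.

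**Figure D3:**
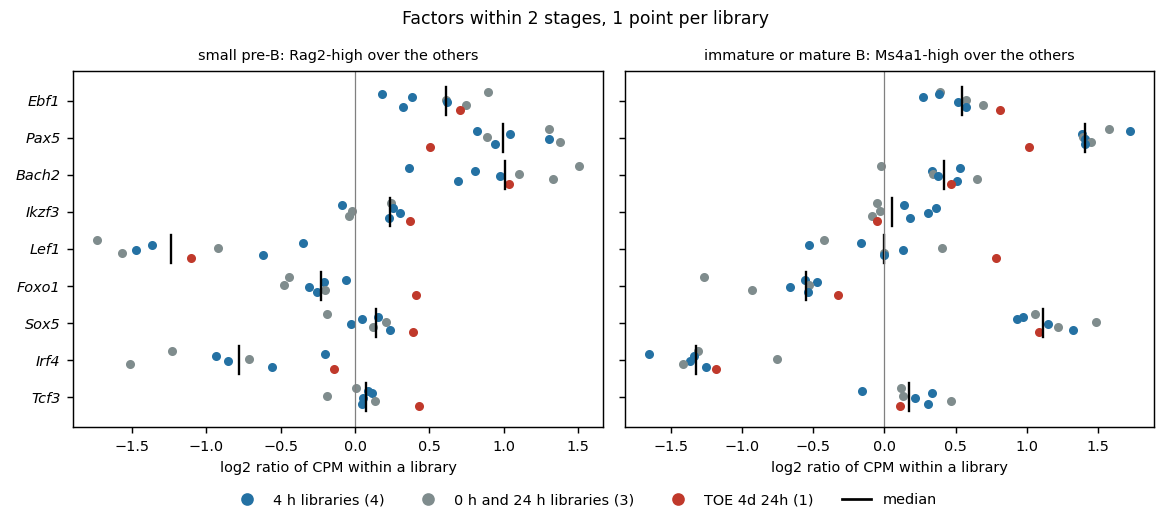
Log2 ratio of CPM (pseudocount 1) of each gene between Rag2-high and other small pre-B cells, and between Ms4a1-high and other immature or mature B cells, with 1 point per library and a bar at the median. Pax5 lies above 0 and Irf4 below 0 in all 8 libraries in both panels.

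Plasma-cell-like cells numbered 75 over all libraries, with Jchain at 69117 CPM and Prdm1 at 393 CPM (exact 95% Poisson interval 357 to 432, which like all such intervals here covers counting error only). Pax5, which plasma cells are known to lose, stood at 60.4 CPM (46.8 to 76.7), but 49 of its 67 UMIs came from the 20 cells of TOE 2d 4h, and without that library it stood at 22.1 CPM. Ebf1 stood at 598 CPM (554 to 646) and Bach2 at 415 CPM (377 to 454). Irf4 stood at 121 CPM (101 to 143) and Ikzf3 at 500 CPM (459 to 543). Neutrophil-like cells, which should lack Pax5, had 23.6 to 88.2 CPM of it and 273 to 779 CPM of Ebf1, so neither level of the plasma-cell-like cells rose above that background. Irf4 was 3.54 to 16.3 CPM in neutrophil-like cells, below the plasma-cell-like level.

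In stroma, Ebf1 was the gene of interest. The mesenchymal-like class held 1279 cells, with 12 of 12 mesenchymal markers summing to 68660 to 219664 CPM. Ebf1 stood there at 597 to 1501 CPM (median 892), against a median of 8810 CPM in the B-cell-like class. After its normalization, the edgeR quasi-likelihood test put Ebf1 6.55-fold lower (log2 -2.71 ± 0.16, adjusted p = 8.51e-09). All 9 genes were lower in mesenchymal-like than in B-cell-like cells, where 74.0% of 16952 genes were called (34.8% higher and 39.3% lower). Their log2 changes ran from -1.93 (Tcf3) to -4.39 (Pax5), with a median of -2.83 against -0.11 over all genes tested. The 9 were listed as B lineage factors, so this direction is a description. Mesenchymal-like cells stood above neutrophil-like cells for Irf4 in 0, Ikzf3 and Pax5 in 1 and Bach2 in 4 of 8 libraries. For Sox5 they did so in 6, and for Ebf1, Lef1, Foxo1 and Tcf3 in 8 of 8.

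B cell genes were counted in every class, and the source of these counts, such as free RNA in droplets, was not tested. Neutrophil-like cells, which should lack Ebf1, served as background. They had Ebf1 at 273 to 779 CPM (median 439). Mesenchymal-like cells were above them in 8 of 8 libraries (median log2 ratio 0.85, range 0.38 to 2.28). Pax5 showed the reverse, at 28.1 against 36.6 CPM in the median and higher in mesenchymal-like cells in only 1 of 8 libraries. The B cell gene Cd79b stood at 16.9 against 34.6 CPM, and the B cell markers in the files (10 of 12) summed to 139 to 297 CPM against 165 to 426 CPM. After each cell was thinned to 2000 UMIs, 59.2% to 82.8% (median 69.3%) of mesenchymal-like cells held an Ebf1 UMI, against 28.2% to 45.7% (median 32.4%) of neutrophil-like cells. Unthinned, the medians were 99.7% and 64.8%, at median depths of 27289 and 5434 UMIs per cell. The ratio of Ebf1 to Pax5 UMIs, computed after the data were seen, was 13.6 to 63.8 (median 33.3) in mesenchymal-like cells, the lowest value being that of TOE 4d 24h and the next 26.5. It was 7.38 to 12.4 (10.8) in all B-cell-like cells and 7.34 to 13.2 (11.7) in neutrophil-like cells. The neutrophil-like value lay on that of B cells and the mesenchymal-like value above both, and pro-B cells reached 13.7 to 23.0 (19.5). The other blood cell classes outside the B lineage had Ebf1 medians of 293 (monocyte-like) to 594 CPM (T/NK-cell-like). In erythroid-like cells Ebf1 reached a log2 ratio of 2.57 over neutrophil-like cells, above the highest mesenchymal-like ratio of 2.28. The median erythroid-like ratio was 0.0055, with 4 of 8 libraries above neutrophil-like cells. Pax5 and Bach2 reached 2.32 and 2.60 in the same class. The Ebf1 to Pax5 ratio of erythroid-like cells was 7.81 to 14.4.

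Within the mesenchymal-like class, 748 cells led by Postn and 255 osteoblast-like cells were compared in the 6 libraries with at least 20 of each. Ebf1 stood at 1007 CPM in the Postn-led and 626 CPM in the osteoblast-like cells (higher in 6 of 6). Sox5 stood at 61.9 and 14.2 CPM (6 of 6). Endothelial-like cells (356 cells in 7 libraries) had Ebf1 at 646 to 1405 CPM (median 1183), above the mesenchymal-like class in 3 of 7 libraries, so the order of these 2 classes did not exceed their spread. Foxo1, which restrains vessel growth in endothelium, stood there at 156 to 332 CPM (median 242), above neutrophil-like cells in 7 of 7 libraries.

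**Figure D4:**
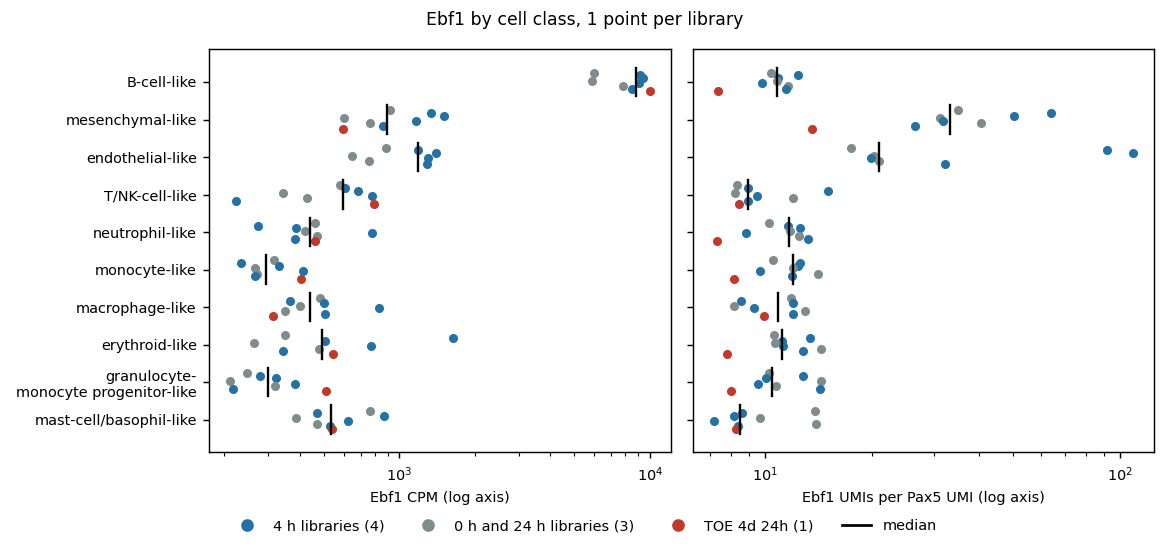
Level of Ebf1 (CPM, left) and Ebf1 UMIs per Pax5 UMI (right) in 10 cell classes, on log axes, with 1 point per library and a bar at the median. Mesenchymal-like cells (median 892 CPM) and endothelial-like cells (1183 CPM) lie above neutrophil-like cells (439 CPM) and have higher ratios to Pax5 (33.3 and 20.9 against 11.7). The endothelial-like ratio ran from 17.4 to 109, on as few as 8 Pax5 UMIs in a library, and overlapped the 13.7 to 23.0 of pro-B cells.

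T/NK-cell-like cells carried several of the genes. Lef1, a factor of T cell development, stood at 579 CPM in the median against 16.6 CPM in neutrophil-like cells. Ikzf3 stood at 799 against 66.5 CPM, Bach2 at 653 against 171 CPM, Foxo1 at 549 against 29.5 CPM and Sox5 at 100 against 20.6 CPM, each above in 8 of 8 libraries. Ebf1 and Pax5, which define B cells, were above the neutrophil-like level in only 4 and 5 of 8 libraries. In erythroid-like cells Tcf3 stood at 88.8 CPM, against 17.6 CPM in neutrophil-like cells.

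Shock waves were compared through the 3 times at which both arms had a library, 2d 4h, 4d 4h and also 4d 24h. These pairs stood as replicates of the treatment although day, hour and number of sessions differ. The TOE library of 2d 4h followed the first session only, and those of 4d 4h and 4d 24h followed both. With 1 library per condition no pair could be tested by itself. The edgeR quasi-likelihood test with pairs as blocks called 0.0% of genes in each of the 6 comparisons (all B-cell-like cells, mesenchymal-like cells and the 4 stages), and none of the 9 genes among them. DESeq2 called 0 of the 9 as well, where it called 0.00394% to 1.89% of the genes it tested. In pro-B and in immature or mature B cells it gave an adjusted p for only 1960 and 2539 genes. A gene without one could not be called. At an unadjusted p under 0.05, the members numbered 2 for all B-cell-like cells (7.26% of all genes tested lay under it) and 3 for the mesenchymal-like class (3.09%). By stage they numbered 2 in pro-B (9.92% of all genes), 2 in large pre-B (7.3%), 1 in small pre-B (7.32%) and 2 in immature or mature B cells (7.15%).

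Irf4 was lower in TOE than in TO in all 3 pairs in all 4 stages. In small pre-B cells it was 174 against 283 CPM at 2d 4h, 201 against 243 CPM at 4d 4h and 99.3 against 210 CPM at 4d 24h. In large pre-B cells the values were 175 against 313, 243 against 265 and 87.1 against 246 CPM. The gap was thus widest at 4d 24h and narrowest at 4d 4h in both stages. Over all B-cell-like cells the log2 difference was -0.90 ± 0.24 (unadjusted p = 0.00418, adjusted p = 0.669), and by stage it was -1.02, -0.90, -0.83 and -0.86 (adjusted p from 0.470 to 0.681, edgeR quasi-likelihood test). Genes lower in TOE in all 3 pairs made up 12.7%, 11.2%, 9.99% and 14.0% of genes with a mean of 20 CPM in the 4 stages. Without the pair 4d 24h the difference over B-cell-like cells was -0.58 (adjusted p = 0.9999), and without 4d 4h it was -1.22 (adjusted p = 0.000999), the highest and lowest p of its alternatives. In that last fit 8.37% of all genes were called. Within the Rag2-high cells the 3 log2 ratios were -0.90, -0.03 and -0.41, and within the other small pre-B cells they were -0.24, -0.40 and -0.98.

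Foxo1 was also lower in all 3 pairs in all 4 stages. Its log2 ratios were -0.63, -0.13 and -0.52 in pro-B cells, -0.57, -0.10 and -0.79 in large pre-B cells, -0.23, -0.05 and -0.42 in small pre-B cells and -0.41, -0.12 and -0.77 in immature or mature B cells, in the order of the pairs given above. The difference was smallest at 4d 4h in each stage. In the Rag2-high cells Foxo1 was level in the last pair, at 518 CPM in TOE against 505 CPM in TO, whereas in the other small pre-B cells its log2 ratio in that pair was -0.85. Pax5 was higher in TOE at 4d 24h in each stage (log2 ratios of 1.44, 1.13, 1.45 and 1.70) and, by less, at 2d 4h (0.22, 0.11, 0.62 and 0.54). At 4d 4h its ratios were 0.18, -0.27, -0.34 and -0.20. Bach2 was also higher at 4d 24h in each stage (0.71, 1.08, 1.47 and 0.41). At 4d 4h Bach2 was lower in each stage (-0.11, -0.17, -0.16 and -0.14), and at 2d 4h its ratios were -0.03, 0.55, 0.63 and 0.23. The Pax5 ratio at 4d 24h was 0.67 among Rag2-high cells and 1.05 among the other small pre-B cells. The make-up of the stages differed within the pairs. Rag2-high cells were 64.6% of small pre-B cells in TOE against 24.2% in TO at 2d 4h, 29.8% against 38.3% at 4d 4h and 93.8% against 8.85% at 4d 24h. Ms4a1-high cells were 44.5% against 5.34%, 13.7% against 20.9% and 92.4% against 6.43% of immature or mature B cells. Within the Ms4a1-high cells the Pax5 ratios were -0.40, -0.04 and 0.49 and those of Irf4 were -0.16, -0.30 and -0.47. Within the other immature or mature B cells they were -0.08, -0.07 and 0.87 for Pax5 and -0.45, -0.39 and -0.04 for Irf4. Some of these groups were small. TOE 4d 24h held 84 other immature or mature B cells and 247 other small pre-B cells. The Ms4a1-high cells numbered 88 in TO 2d 4h and 101 in TO 4d 24h. The part of the group shares in the ratios of whole stages was not tested.

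**Figure D5:**
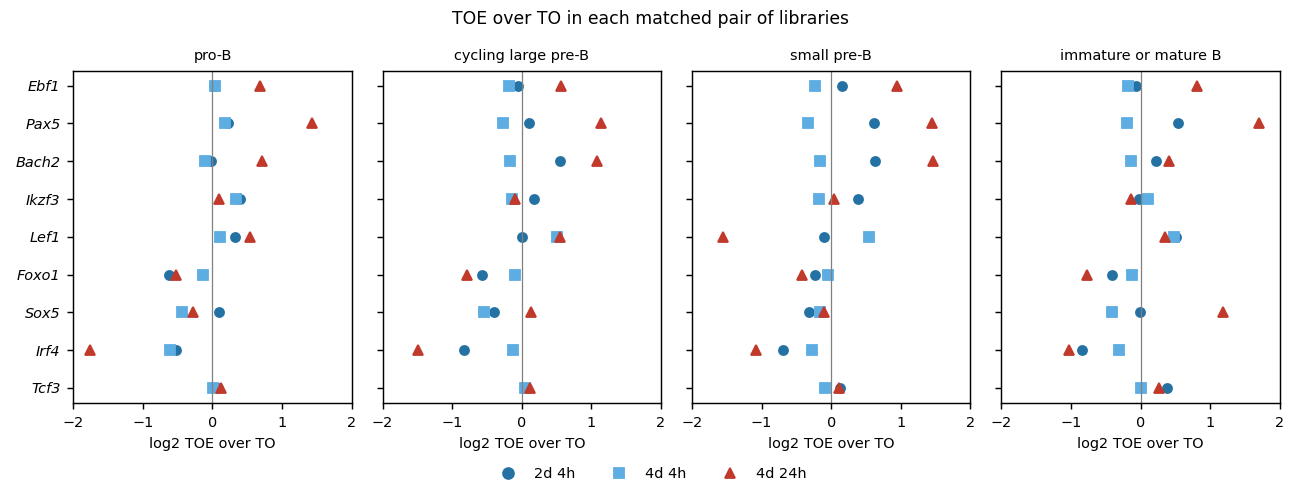
Log2 ratio of TOE over TO for each of the 9 genes in each of the 3 pairs (day 2 at 4 h, day 4 at 4 h, day 4 at 24 h), in 4 panels for the B cell stages. Irf4 and Foxo1 lie below 0 in all 3 pairs of every panel, and Pax5 at 4d 24h lies at 1.13 to 1.70, above its other 2 pairs in every panel.

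In mesenchymal-like cells Ebf1 was 1162 against 1333 CPM at 2d 4h, 863 against 1501 CPM at 4d 4h and 597 against 603 CPM at 4d 24h in TOE against TO. The gap was widest at 4d 4h. Postn-led cells, in which Ebf1 and Sox5 were higher, made up 51.7% of the class in TOE against 66.7% in TO at 2d 4h, 76.0% against 89.8% at 4d 4h and 59.5% against 13.1% at 4d 24h, and the part of this in the differences was not tested. Lef1 (log2 0.71), Foxo1 (-0.75) and Sox5 (-0.90) had an unadjusted p under 0.05 and did not pass after adjustment, where 3.09% of genes lay under it. By pair, in the same order, the log2 ratios were 0.33, 0.59 and 1.36 for Lef1 and -0.60, -0.43 and -0.97 for Foxo1. Those of Sox5 were -1.08, -1.45 and 0.28, so its last pair went the other way. These values came from 60 to 183 cells per library. Since each library held 1 condition, differences between animals and effects of shock waves cannot be told apart.

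Some of the genes split the libraries by the hour of collection. In immature or mature B cells, Bach2 (3380 to 4411 CPM against 1937 to 2870), Ikzf3 (2395 to 2651 against 2115 to 2384), Lef1 (108.4 to 179 against 83.3 to 108.0) and Foxo1 (859 to 1142 against 457 to 783) were higher in the 4 libraries taken at 4 h than in the 4 taken at 0 h or 24 h, without overlap. Genes with such a split made up 20.7% of genes with a mean of 20 CPM in this stage. In large pre-B cells Ikzf3, Foxo1 and Tcf3 split in this way (20.9% of genes), in small pre-B cells Foxo1 and Tcf3 (20.5%), and in pro-B cells none of the 9 (13.2%). In mesenchymal-like cells Sox5 did, at 62.0 to 171 CPM against 16.3 to 33.8 CPM (19.5%). Genes longer than 100 kb took 21.1% to 23.8% of small pre-B UMIs in the 4 h libraries and 20.7% in TOE 4d 24h, against 14.1% to 15.3% in the other 3. Ebf1, Pax5, Bach2, Lef1 and Sox5 are longer than that, and the part of this share in their levels was not tested.

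The genes with the most similar pattern were found over 97 units, each a class or stage in 1 library with at least 50 cells, by Pearson's r of log2(CPM + 1) among 7091 genes. Units share libraries and depth, so r is a description across units. Over the 32 units of the B stages alone the r of the genes named here ran from 0.339 (Cxxc5 with Tcf3) to 0.938 (LOC103691708 with Lef1). Pax5 went with Pou2af1 (r = 0.979), a B cell coactivator, and with Ighv (0.958). Irf4 went with the kinase gene Blk (0.970), the BAFF receptor gene Tnfrsf13c (0.95) and Rasal1 (0.949). Bach2 went with Aff3 (0.955), Tmem123 (0.943) and Arid1b (0.935), and Ikzf3 with Tmem163 (0.942), Slamf6 (0.921) and Dusp10 (0.916). Foxo1 went with Cdk17 (0.961), Pitpnm2 (0.947) and Ppp1r16b (0.943). Tcf3 went with Smarca4 (0.938), a chromatin remodeller, Cxxc5 (0.934) and Top2b (0.932). Sox5 went with Btla (0.904), an inhibitory receptor of mature lymphocytes, Tmem163 (0.877) and Zfp318 (0.862). Ebf1 and Lef1 each followed an unnamed locus most closely, LOC120095080 (0.989) and LOC103691708 (0.968), whose overlap with them was not checked. After these came Arid1b and Akap12 (0.957 each) for Ebf1, and Il12rb2 (0.90) and Sit1 (0.878) for Lef1. Between members, over the 32 units of the 4 stages, Ikzf3 and Lef1 ran most strongly apart (r = -0.95), Ikzf3 and Sox5 ran together (0.80), as did Ikzf3 and Bach2 (0.80), and Sox5 and Tcf3 ran apart (-0.71).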

How the data were processed

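Single-cell suspensions of tibial osteotomy tissue were sequenced as 10x Chromium 3′ libraries, 1 per condition, of which 8 were analysed here. Per the submitters' processing notes the authors used Cell Ranger 9.0.0, Seurat and R 4.0.3, with the builds mRatBN7.2 and GRCh38 listed, and deposited UMI counts per gene and barcode without normalization. Whether intronic reads were counted is not given in the sources used here, and reads of overlapping genes cannot be told apart. Because reads come from 3′ ends, levels were compared within a gene, not between genes.

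Of 116711 barcodes, 114232 passed a minimum of 200 genes and a ceiling of 20% for mitochondrial UMIs. Cells with a Scrublet score over 0.25, a cutoff set after the scores were seen, were removed as doublets (3806, 3.33%). Clusters came from 2000 variable genes without the 9 members and 46 other factors, 30 components, 15 neighbours and Leiden resolution 1 (scanpy 1.11.5, igraph 0.11.9, python 3.11.15), with no integration. B cell stages were named from markers raised at least 1.5-fold and cell classes from markers raised by a higher fold, and 5593 cells stayed unnamed. The rules for ties and thresholds of naming were set after values were seen. The members and lists were chosen with earlier results of these data known.

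UMIs were summed per library and stage or class (at least 20 cells) and tested with the edgeR 4.0.16 quasi-likelihood test in R 4.3.3 (TMM, library or pair as a block, adjusted over all genes, called under 0.05). Log2 and fold changes are those of the edgeR test after TMM, so they can differ from ratios of median CPM. That test gives no standard error. Each SE was taken as the size of the log2 change divided by the square root of its F statistic. DESeq2 1.42.0 was an alternative. Libraries of different day, hour and group stood as replicates, which for the pairs left 2 residual degrees of freedom. Every label holds 1 replicate, so no replicate numbers pair samples. Named genes were all members, the 3 listed factors with the largest rise and fall per stage comparison, and the 3 genes most like each member, of which 1 is not reported here. The tests were run on simulated counts: genes changed by 1 on the log2 scale were recovered in 84.7%, 90% and 97% for the 3 stage comparisons, 62.2% for mesenchymal-like cells and 11.3% to 54.1% for the 6 comparisons of TOE with TO. Alternatives were other filters, doublets kept, other clusterings, stages from single cells, no block, each library or pair left out and, chosen after seeing the data, the 4 h libraries or the 0 h and 24 h libraries by themselves.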

Additional observations from a re-analysis of the deposited data

Results flagged for a closer look

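Ebf1 differed in direction between stroma and pro-B cells when TOE was set against TO. In mesenchymal-like cells its log2 ratios were -0.20, -0.80 and -0.01 in the pairs at 2d 4h, at 4d 4h and last at 4d 24h, and in pro-B cells they were 0.02, 0.03 and 0.69. All 3 pairs thus had opposite signs in the 2 groups of cells, which is what drew attention, although 3 of the 6 ratios are 0.03 or less in size. The difference itself was not tested. In large pre-B, small pre-B and immature or mature B cells the ratios at 4d 4h were -0.18, -0.23 and -0.18, below 0 as in stroma. In the same order they were -0.05, 0.15 and -0.06 at 2d 4h and 0.57, 0.94 and 0.81 at 4d 24h.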

How the results depend on the processing

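With each library left out in turn, the number of the 9 genes called was 9 in large over pro-B cells (with 56.0% to 57.7% of all genes called), 8 to 9 in small over large pre-B cells (71.9% to 74.1%), 6 to 8 in immature or mature B over small pre-B cells (56.5% to 60.1%) and 9 in mesenchymal-like over B-cell-like cells (71.0% to 73.2%). With no library block, 8, 5 and 5 of the 9 were called in the 3 stage comparisons in this order, where 39.8%, 50% and 23.6% of all genes were called, and 9 in mesenchymal-like over B-cell-like cells (71.4%). TOE over TO called 1 of the 9 in B-cell-like cells with no filter and 0 to 1 with each pair left out. Over the 4 stages it called 2 with no filter and 0 to 5 with each pair left out, all of them Irf4 but for Foxo1 in pro-B cells. The calls with a pair left out appeared without 4d 4h, which leaves 2 pairs, and the same fits called 8.37% of all genes in B-cell-like cells and 4.71% to 7.65% by stage. With no filter 1.23% and 0.773% to 1.37% of all genes were called. The no pair block fits called 0. Ranked by the unthinned percentage of cells holding a UMI, 5 of the 9 genes had the same highest stage as by CPM, against 9 after thinning.

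Signs turned only in small changes or in the comparison of TOE with TO. Sox5 in small over large pre-B cells was -0.21 with stages from single cells. Irf4 in immature or mature B over small pre-B cells was -0.058 with no filter, -0.00600 in the 0 h and 24 h libraries, -0.00701 with the members among the clustering genes, -0.00159 with a stricter cell filter, and -0.0054 to 0.034 with each library left out. Ikzf3 in small pre-B cells, TOE over TO, was 0.00715 with doublets kept. With each pair left out, the log2 values of TOE over TO ranged in B-cell-like cells from -0.15 to 0.22 for Ebf1, -0.018 to 0.66 for Pax5 and -0.33 to 0.012 for Sox5. In mesenchymal-like cells they ranged from -0.44 to 0.36 for Bach2, -0.52 to 0.077 for Ikzf3 and -0.88 to 0.22 for Irf4. In pro-B cells they ranged from -0.052 to 0.29 for Ebf1 and -0.15 to 0.23 for Bach2, and in large pre-B cells from -0.17 to 0.16 for Ebf1 and -0.14 to 0.52 for Pax5. In small pre-B cells they ranged from -0.12 to 0.36 for Ebf1, -0.20 to 0.029 for Ikzf3 and -1.02 to 0.14 for Lef1. In immature or mature B cells they ranged from -0.20 to 0.22 for Ebf1, -0.031 to 0.13 for Bach2 and -0.28 to 0.40 for Sox5. Most of these turned without the pair 4d 24h. The causes were not tested.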
